A study of Rattus norvegicus with 11 samples.

Results

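The genes described here are 39 genes named as solute carriers, out of 32883 genes counted in 11 rats, in tissue that held both colliculi, inferior and superior (the corpora quadrigemina). They were chosen by symbol from a supplementary table of gene lists that gives a symbol to 1763 of the genes counted, mostly genes it lists as differing between KM and W rats or between KM and “0” rats. All symbols beginning with Slc and a digit or with Slco were taken, except 4 that were left out. The table lists 30 of the 39 genes for KM against W and 13 for KM against “0”, and 4 of them stand in both lists. Because the members were selected on these same counts, their values in KM against W and KM against “0” are descriptions and support nothing. Of the members, 38 encode transporters, and Slc4a1ap encodes an adaptor protein (kanadaptin) that is named after the anion exchanger Slc4a1.

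The study asked which genes differ in expression between rats that do and do not convulse in response to sound. Poly(A) RNA was sequenced from 3 KM, 4 W and 4 “0” male rats, all 4 months old, each as a library of its own. KM is an audiogenic-seizure strain bred from Wistar rats, and these rats had been exposed to sound once at 3 months. W were outbred Wistar rats without a seizure response, and “0” rats came from a strain bred from KM × Wistar hybrids for lack of seizures. The “0” strain was still under selection, and its rats had been tested 3 times at 3 months. All groups shared a sound exposure 4 days before the tissue was taken. The labels call the strain wistar for every rat and give KM as prone to audiogenic epilepsy, “0” as less prone and W as wild type. Reads counted on genes ranged from 10545964 to 15140180 per rat (median 11861682), and the members held 0.16 to 0.219% of them. At this depth 3 counts, taken as the floor for counting error alone, equalled 0.198 to 0.284 CPM (read counts scaled to library size) without TMM adjustment. The CPM values of genes in each rat were scaled to the TMM-adjusted library size.

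The library of KM 3 stood apart from the others. Of 14 choroid plexus markers (the epithelium that secretes cerebrospinal fluid), 8 had a symbol, and their summed level was 7230 CPM in KM 3 against 31.4 to 79.5 CPM in the other 10 rats. The transthyretin gene Ttr alone reached 6450 CPM there. In “0” 3 the 10 genes with most counts held 29.2% of the counts, against 7.94 to 19.0% in the other rats. A single colliculus marker, Pou4f1, had a symbol, and it lay at 0.081 to 2.76 CPM, below the floor in KM 1 and KM 2, so the dissected tissue could not be checked further.

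Solute carriers are membrane proteins that move ions, neurotransmitters, amino acids, fuels, vitamins and hormones across the plasma membrane and the membranes of organelles. In the brain they end transmission by taking transmitters back up, set the chloride, calcium and pH gradients on which excitability depends, and carry nutrients across the vessel wall and the choroid plexus. Human SLC genes are among the known genes of inherited epilepsy.

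The promoters of the 4 genes found in both lists are shown here, since these are the members listed for KM rats against both other strains. Each is the 300 bases from 250 before to 50 after the RefSeq start of the gene (build GRCr8, read in the direction of the gene), with CpG dinucleotides in capitals. Promoters were found by symbol for 30 of the 39 members. Slc24a2 lies at chr5:106787731-106788030 on the minus strand, Slc25a14 at chrX:132685359-132685658 on the plus strand, Slc25a18 at chr4:155672919-155673218 on the plus strand and Slc7a11 at chr2:136668215-136668514 on the minus strand.
Slc24a2: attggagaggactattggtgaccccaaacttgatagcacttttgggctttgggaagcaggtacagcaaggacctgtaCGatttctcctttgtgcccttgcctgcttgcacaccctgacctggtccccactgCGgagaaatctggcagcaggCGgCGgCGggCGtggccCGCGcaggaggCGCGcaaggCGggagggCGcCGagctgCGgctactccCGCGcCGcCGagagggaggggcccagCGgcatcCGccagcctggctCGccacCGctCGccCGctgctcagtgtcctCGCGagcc
Slc25a14: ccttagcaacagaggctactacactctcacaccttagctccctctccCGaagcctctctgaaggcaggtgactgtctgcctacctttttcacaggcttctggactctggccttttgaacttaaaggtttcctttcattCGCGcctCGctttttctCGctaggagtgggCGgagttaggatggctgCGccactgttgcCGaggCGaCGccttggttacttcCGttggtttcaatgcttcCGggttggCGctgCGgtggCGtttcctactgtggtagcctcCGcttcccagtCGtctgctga
Slc25a18: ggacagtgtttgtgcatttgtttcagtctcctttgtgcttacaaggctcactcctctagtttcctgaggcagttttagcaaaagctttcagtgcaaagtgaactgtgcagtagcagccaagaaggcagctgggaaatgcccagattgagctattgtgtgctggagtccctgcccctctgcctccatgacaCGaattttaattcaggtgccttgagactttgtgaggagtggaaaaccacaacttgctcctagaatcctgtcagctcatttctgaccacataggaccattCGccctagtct
Slc7a11: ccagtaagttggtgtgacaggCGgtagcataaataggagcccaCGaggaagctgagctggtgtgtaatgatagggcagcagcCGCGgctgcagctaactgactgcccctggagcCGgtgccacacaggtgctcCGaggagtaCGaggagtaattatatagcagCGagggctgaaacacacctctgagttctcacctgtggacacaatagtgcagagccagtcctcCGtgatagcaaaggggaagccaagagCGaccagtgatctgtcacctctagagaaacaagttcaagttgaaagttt
The number of CpG dinucleotides was 26 in Slc24a2, 17 in Slc25a14, 10 in Slc7a11 and 2 in Slc25a18. Over the 30 member promoters the number ran from 2 to 52 with a median of 16.5, and over all 33469 promoters of the table the median was 7. The GC box letters GGGCGG were present on either strand in 15 of the 30 member promoters (50%) and in 33.1% of all promoters, and among the 4 sequences shown only Slc25a14 held them. The letters TGACNNNGC of the antioxidant response element were in 6 member promoters (20%) and in 12.1% of all. TATAAA was in 2 member promoters (6.67%) and in 14.2% of all. TGATGNAA and TGACGTCA were in none of the 30, against 3.98% and 1.83% of all promoters. These are letter matches, and no binding was measured. All promoters of the table were taken whatever the level of their gene in this tissue, whereas every member had counts here. No background of genes expressed in this tissue was made, so nothing is read from these numbers and shares.

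Among the members, 26 of 39 had an unadjusted p under 0.05 between KM and W rats in the quasi-likelihood F-test (QLF test) of edgeR, with 11 higher in KM and 15 higher in W rats. The background over all 13721 genes tested was 10.9%, with 5.58% higher and 5.33% lower. Between KM and “0” rats 12 of the 38 members tested passed, 5 higher and 7 lower in KM rats, where the background was 3.65% (2.37% higher and 1.29% lower). Nothing is read from either count, since the members were chosen on these 2 comparisons. A p given without the word adjusted is unadjusted throughout. The CPM ranges of KM and W rats did not overlap in 22 members, against 11.6% of all genes, and those of KM and “0” rats in 9 members, against 4.63%. The member just inside the threshold was Slc46a3 for KM against W, with an unadjusted p of 0.0478, and Slc25a14 for KM against “0”, with 0.0481. Slc13a3, Slc4a2, Slc38a2 and Slc35a1 are listed in the table but lay just outside in the present fit, with p from 0.0501 to 0.0531. The median log2-fold change of the members was 0.05 in KM against W, where it was 0.01 over all genes, and 0.03 in KM against “0”, where it was 0.01.

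No member passed an adjusted p of 0.05 in the QLF test of edgeR in any comparison, and the lowest adjusted p was 0.199 in KM against W, 0.987 in KM against “0” and 0.0652 in “0” against W. Over all genes the share that passed was 0.0656%, 0.0146% and 0.11%, respectively. The Wald test of DESeq2 put 26, 12 and 12 members under an unadjusted p of 0.05, against 10.8%, 3.71% and 6.78% of all genes. It gave an adjusted p under 0.05 to 3 members in KM against W (Slc25a18, Slc4a1 and Slc7a11), to 0 members in KM against “0” and to 2 members in “0” against W (Slc12a2 and Slc4a1). Over all genes DESeq2 called 1.07%, 0.293% and 0.873% at that threshold. Leaving out the KM 3 library lowered the members with an unadjusted p under 0.05 from 26 to 17 in KM against W and from 12 to 7 in KM against “0”, while the share over all genes rose from 10.9 to 11.6% and from 3.65 to 6.75%. Without KM 1 the members numbered 18 and 3, and the share over all genes was 9.95% and 2.16%. With each rat left out in turn the members numbered 17 to 22 and 3 to 10. They were chosen with all rats in, so leaving out any rat tends to lower their number, and nothing is read about KM 3 from these falls.

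The comparison of “0” with W rats was not used to list the genes, but the W and the “0” rats each served in a comparison that was. In it 11 of the 38 members tested (28.9%) had an unadjusted p under 0.05, 7 higher and 4 lower in “0” rats, and the background was 6.69% of 13630 genes, with 3.26% higher and 3.43% lower. The ranges of the 2 strains did not overlap in 6 members, against 4.32% of all genes. The median log2-fold change was 0.02 over the members and −0.01 over all genes. Of the 26 members listed for KM against W alone, 8 passed in “0” against W and 0 in KM against “0”. Of the 9 members listed for KM against “0” alone, 3 passed in “0” against W, all higher in “0” rats, and 0 in KM against W. That neither subset had a pass in the other KM comparison largely follows from how the subsets were defined. Their members were missing from the other list, which used the same counts and threshold, so nothing is read from it. None of the 4 members in both lists passed in “0” against W. The 3 comparisons share rats, so these counts are not independent of each other.

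**Figure D1:**
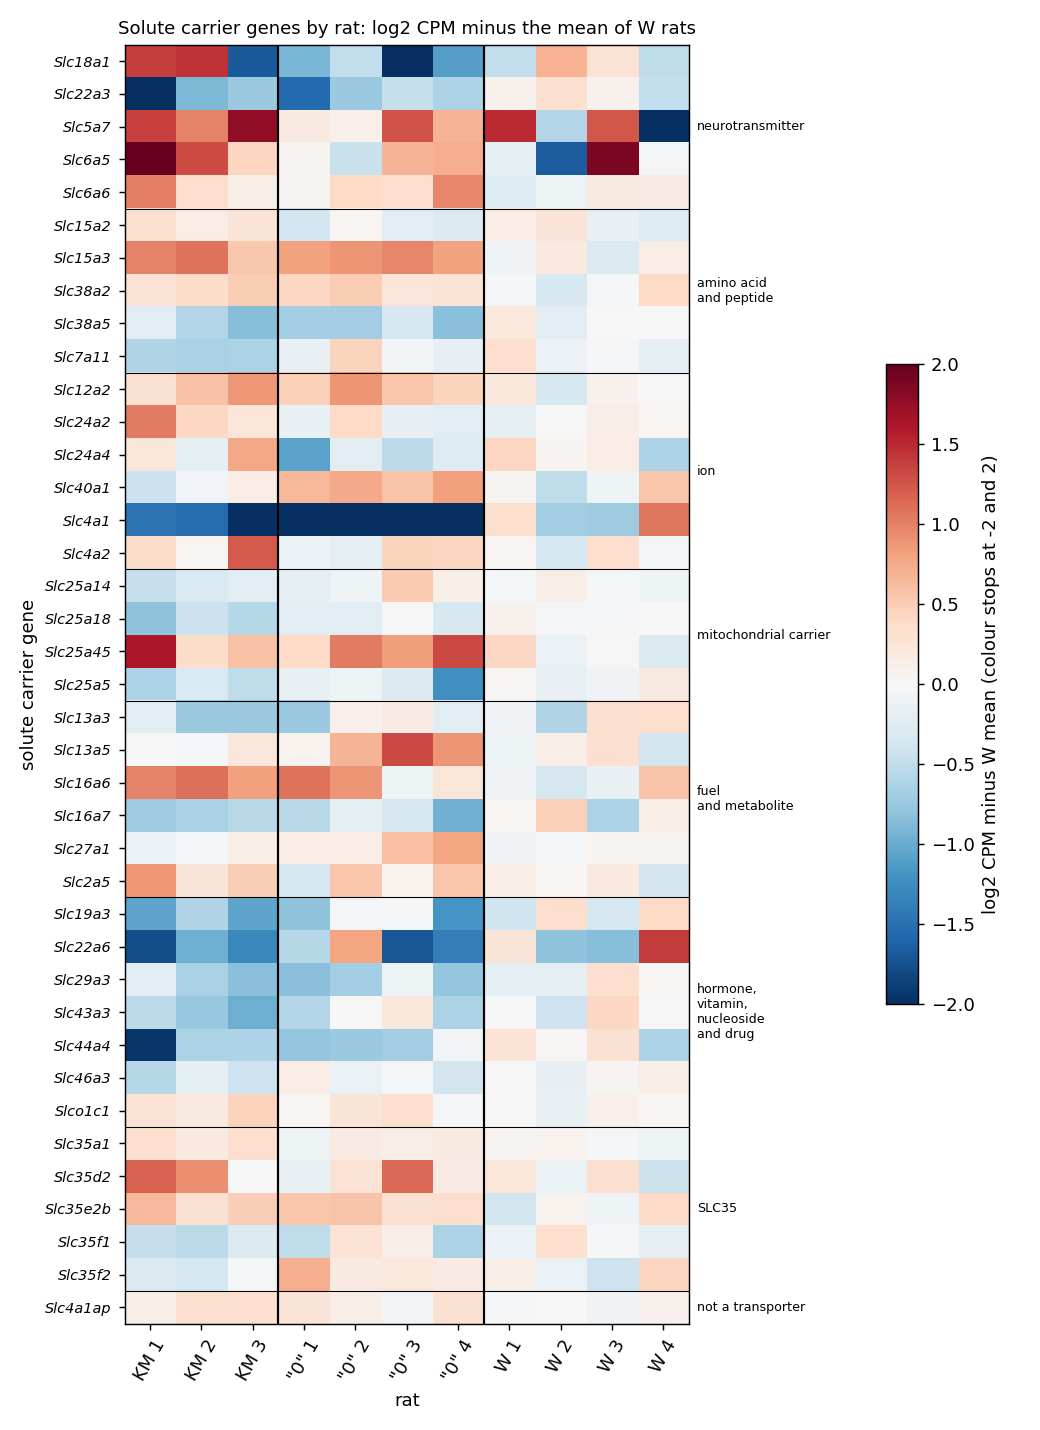
Heatmap of the 39 members (rows, grouped by role) in the 11 rats (columns), with colour for log2 CPM minus the mean of the 4 W rats, blue for lower and red for higher, stopping at −2 and 2. Slc4a1 is blue in all KM and “0” rats, Slc7a11 is blue in the 3 KM rats, and Slc4a2 is reddest in KM 3.

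**Figure D2:**
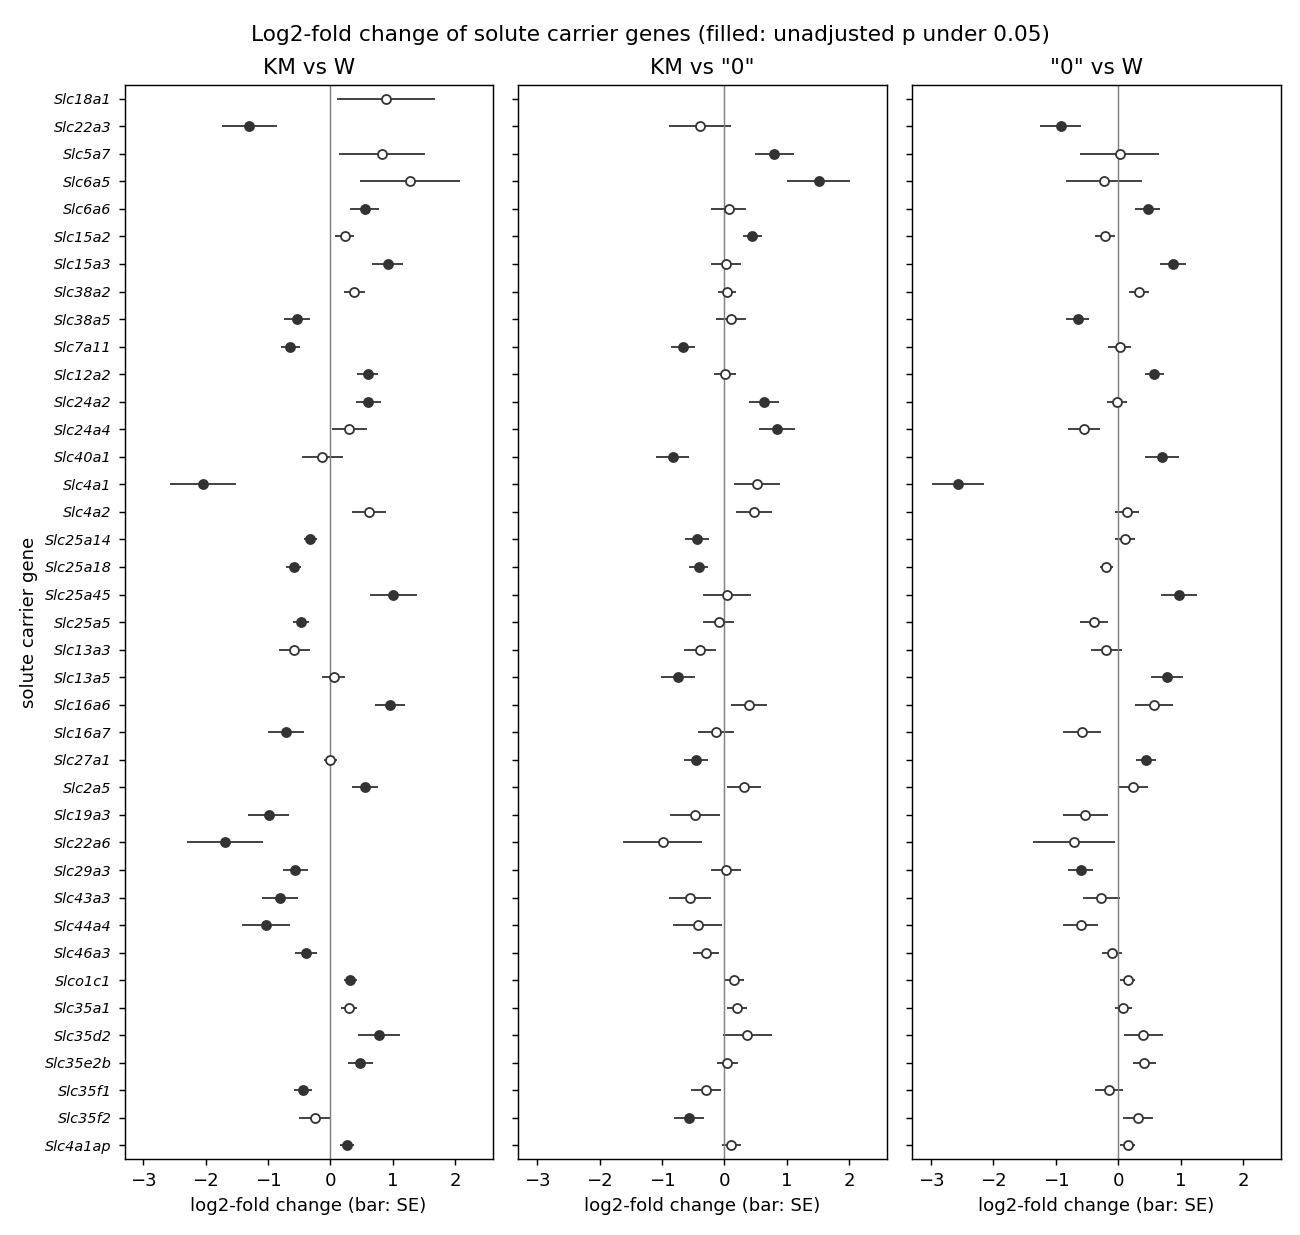
Log2-fold change of each member (point) with its standard error (bar) in the QLF test of edgeR for KM against W (left), KM against “0” (middle) and “0” against W (right), filled where the unadjusted p was under 0.05. The filled points number 26, 12 and 11, and Slc4a1 lies farthest left in the left and the right panel.

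The 4 members in both lists comprised 3 with lower and 1 with higher values in KM rats. Slc7a11 encodes xCT, the cystine/glutamate antiporter that feeds glutathione synthesis and releases glutamate. Slc7a11 (ENSRNOG00000010210) had 24.3, 23.5 and 23.7 CPM in KM rats, 33.1, 50.2, 35.6 and 32.6 CPM in “0” rats and 46.8, 33.8, 36.2 and 32.1 CPM in W rats. All KM values lay below all others, and the KM rats were within 1 CPM of each other. The log2-fold change (± standard error) was −0.64 ± 0.15 in KM against W and −0.66 ± 0.19 in KM against “0”. In “0” against W it was 0.02 ± 0.18 (adjusted p = 0.998, QLF test). Slc25a18 (ENSRNOG00000042731), which encodes a mitochondrial glutamate carrier, had 107, 138 and 124 CPM in KM rats, 161, 161, 185 and 149 CPM in “0” rats and 197, 181, 181 and 185 CPM in W rats. KM rats were again below every other rat, with a log2-fold change of −0.59 ± 0.12 against W and −0.41 ± 0.15 against “0”. Without KM 1 or KM 3 the p against “0” was 0.05 or more, with log2-fold changes of −0.32 and −0.39. Of 7 astrocyte markers 3 had a symbol, and they did not move together. Aldh1l1 lay at 51.2 to 60 CPM in KM, 63.9 to 99 CPM in “0” and 67.9 to 82.7 CPM in W rats, with KM rats below all others as in Slc7a11 and Slc25a18. Gja1 lay at 160 to 197 CPM in KM, 132 to 209 CPM in “0” and 199 to 260 CPM in W rats. Gfap had the opposite order, with 1310 to 2090 CPM in KM, 1270 to 2310 CPM in “0” and 985 to 1350 CPM in W rats. These symbols also come from the table of listed genes, and the markers' part in the 2 members was not tested.

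Slc25a14 (ENSRNOG00000006871), which encodes the brain mitochondrial carrier UCP5, had 29.1, 32.4 and 34.2 CPM in KM rats, 35.4, 37.6, 57.6 and 43.6 CPM in “0” rats and 39.2, 44.2, 39.3 and 37.9 CPM in W rats. The KM range lay under both other ranges, by a small margin to the lowest “0” rat. The log2-fold change was −0.32 ± 0.11 against W and −0.44 ± 0.19 against “0”. Against “0” it was −0.29 without “0” 3, the rat with the highest value, and the p was 0.05 or more without KM 1, KM 2, KM 3, “0” 3 or “0” 4, with values from −0.46 to −0.29. Against W the same happened without KM 1 and without W 2, each at −0.27, and in 1 fit of all 11 rats, at −0.32 ± 0.17. With the rat number as a block the p was 0.05 or more in both comparisons, at −0.35 ± 0.16 against W and −0.41 ± 0.2 against “0”. Slc24a2 (ENSRNOG00000008169), which encodes the potassium-dependent sodium/calcium exchanger NCKX2 of neurons, had 295, 191 and 169 CPM in KM rats, 130, 189, 128 and 123 CPM in “0” rats and 127, 145, 156 and 147 CPM in W rats. KM rats were above all W rats but overlapped “0” 2. The log2-fold change was 0.61 ± 0.20 against W and 0.63 ± 0.24 against “0”, and without KM 1 it was 0.33 and 0.34. The p against “0” was also 0.05 or more without “0” 1, “0” 3 or “0” 4, at 0.56 to 0.58, and with the rat number as a block, at 0.54 ± 0.24.

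**Figure D3:**
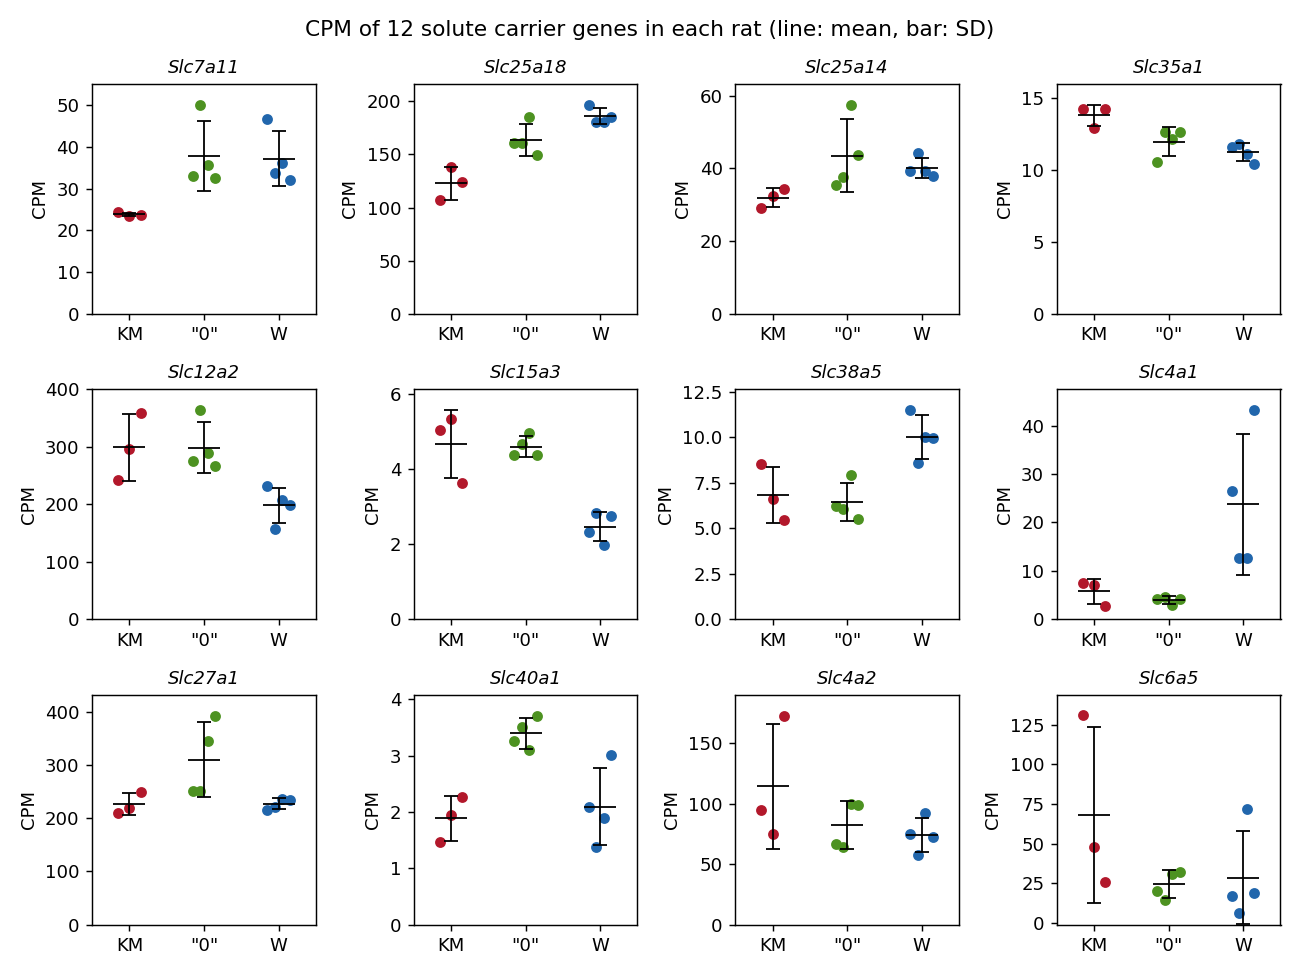
CPM of 12 members in each rat (points), with the strain mean (line) and SD (bar), for 3 KM, 4 “0” and 4 W rats, each panel on its own linear axis. In the top row the KM points stand clear of both other strains, in the middle row the W points do, in the first and second panels of the bottom row the “0” points do, and in its last panels, for Slc4a2 and Slc6a5, 1 KM rat lies far above the other KM rats.

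The transmitter group held 5 members. Between KM and W rats 1 was higher and 1 was lower at an unadjusted p under 0.05 (5.58% and 5.33% of all genes). Between KM and “0” rats 2 of 4 tested were higher (2.37% of all genes). The members that passed are listed for the comparison in question, so nothing is read from these counts. Slc6a5 encodes GlyT2, which takes up glycine in glycinergic neurons. Slc6a5 (ENSRNOG00000031662) had 131, 47.7 and 25.9 CPM in KM rats, 19.9, 14.1, 31 and 32.1 CPM in “0” rats and 16.7, 5.97, 71.7 and 18.9 CPM in W rats. KM 1 was highest of all rats, W 3 came next, and KM 3 lay within the “0” range. The log2-fold change in KM against “0” was 1.51 ± 0.51, and 0.61 without KM 1, where the p was no longer under 0.05. It was also 0.05 or more in 1 fit of all 11 rats, at 1.5 ± 0.71. Slc6a6, the taurine transporter, had 29.9 ± 10.1 CPM in KM, 28.7 ± 8.23 CPM in “0” and 20.6 ± 2.86 CPM in W rats (SD, n = 3, 4 and 4). It was higher in “0” than in W rats by a log2-fold change of 0.47 ± 0.20 (adjusted p = 0.721, QLF test), with overlap.

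Slc5a7 encodes the high-affinity choline transporter that loads cholinergic terminals. Slc5a7 (ENSRNOG00000010597) had 16.7, 12.8 and 22.4 CPM in KM rats, 7.24, 6.92, 15.5 and 10.4 CPM in “0” rats and 18.3, 4.21, 15.3 and 1.32 CPM in W rats. The W rats spread from the lowest value to above 2 of the KM rats. Its log2-fold change was 0.80 ± 0.31 in KM against “0”, and the p was 0.05 or more without KM 1, KM 3, “0” 1 or “0” 2, with values from 0.60 to 0.82. In 1 fit of all 11 rats the value was 0.8 ± 0.62, and the p was likewise above 0.05. Slc22a3 (ENSRNOG00000022946), which encodes the low-affinity monoamine and organic cation transporter OCT3, had 0.324, 1.1 and 1.25 CPM in KM rats, 0.636, 1.23, 1.54 and 1.37 CPM in “0” rats and 2.32, 2.76, 2.31 and 1.51 CPM in W rats. KM rats were below every W rat, and of the “0” rats only “0” 3 reached the W range. The log2-fold change was −1.30 ± 0.44 in KM against W and −0.92 ± 0.33 in “0” against W (adjusted p = 0.616, QLF test). The p of “0” against W was 0.05 or more without “0” 1 or W 2, at −0.69 and −0.79. The vesicular monoamine transporter gene Slc18a1 had 27, 27 and 2 counts in KM, 4, 5, 0 and 4 in “0” and 6, 17, 11 and 5 in W rats. It was under the filter of a mean of 1 CPM in both comparisons with “0” rats, and with no filter its log2-fold change in KM against “0” was 2.44 ± 0.85, with nearly all KM counts in KM 1 and KM 2. The 0 counts of “0” 3 allow a level of up to 0.269 CPM on the library size without TMM adjustment. The TMM factor of this rat was 0.814, so the limit is higher on the adjusted scale. Cholinergic and glycinergic markers could not be examined, since none of the genes on those lists had a symbol, and 1 of 7 monoaminergic markers had one.

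Of the 5 amino acid and peptide transporters, 1 was higher and 2 were lower in KM than in W rats (5.58% and 5.33% of all genes). Against “0” rats 1 was higher and 1 lower in KM rats (2.37% and 1.29% of all genes). Here too the members that passed are listed for the comparison in question, and nothing is read from the counts. Slc15a3 (ENSRNOG00000021644) encodes PHT2, a peptide and histidine transporter of endolysosomes found in immune cells. It had 5.02, 5.32 and 3.62 CPM in KM rats, 4.37, 4.65, 4.96 and 4.36 CPM in “0” rats and 2.32, 2.83, 1.97 and 2.73 CPM in W rats. Every KM and “0” rat lay above every W rat. The log2-fold change was 0.92 ± 0.25 in KM against W, and in “0” against W it was 0.88 ± 0.21 (adjusted p = 0.253, QLF test). Slc38a5 (ENSRNOG00000027767), which encodes the glutamine transporter SNAT5, showed the opposite order with 8.51, 6.59 and 5.46 CPM in KM rats, 6.2, 6.07, 7.94 and 5.53 CPM in “0” rats and 11.5, 8.57, 10 and 9.98 CPM in W rats. All W rats were above all others, by a narrow margin over the highest KM rat. Its log2-fold change was −0.54 ± 0.21 in KM against W and −0.65 ± 0.18 in “0” against W (adjusted p = 0.37, QLF test). The first lost its p under 0.05 without KM 2, KM 3, W 1 or W 3, at −0.55 to −0.39, and the second kept it without any 1 rat. Slc15a2, the peptide transporter PEPT2, had 54 ± 3.32 CPM in KM, 39.8 ± 5.2 CPM in “0” and 46.1 ± 7.77 CPM in W rats (SD, n = 3, 4 and 4), with KM rats above all “0” rats. Slc38a2, the neutral amino acid transporter SNAT2, had 223 ± 17.7 CPM in KM, 218 ± 18.4 CPM in “0” and 172 ± 36.9 CPM in W rats (SD, n = 3, 4 and 4), and its p was above 0.05 in all 3 comparisons. The sole microglial marker with a symbol, Tmem119, lay at 22.6 to 27.1 CPM in KM, 14.9 to 25.1 CPM in “0” and 15.7 to 20.1 CPM in W rats, and its part in the Slc15a3 values was not tested.

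Among 6 transporters of inorganic ions, Slc4a1 (ENSRNOG00000020951) had the lowest log2-fold change of all members in both comparisons with W rats. It encodes band 3, the chloride/bicarbonate exchanger of red cells. It had 7.37, 7.01 and 2.79 CPM in KM rats, 4.14, 4.65, 2.87 and 4.23 CPM in “0” rats and 26.4, 12.6, 12.6 and 43.2 CPM in W rats. All W rats were above all KM and “0” rats, and W 4 and W 1 were the highest. Its log2-fold change came to −2.57 ± 0.41 in “0” against W (adjusted p = 0.0652, QLF test) and −2.04 ± 0.53 in KM against W. With each rat left out in turn it stayed between −2.78 and −2.11 and between −2.29 and −1.59, respectively. Of 13 erythrocyte markers 4 had a symbol, and their summed level was 2490 to 6590 CPM in W, 1390 to 2670 CPM in KM and 1110 to 1720 CPM in “0” rats, highest in W 4 and W 1 as well. Their part in the Slc4a1 difference was not tested. In whole tissue, fewer cells of a type and less RNA per cell cannot be told apart.

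Slc12a2 (ENSRNOG00000015971) encodes NKCC1, the cotransporter that loads cells with chloride, and is named here after its values were seen. It had 243, 296 and 359 CPM in KM rats, 275, 364, 289 and 267 CPM in “0” rats and 231, 157, 207 and 198 CPM in W rats. Each KM and “0” rat was above the highest W rat, with KM 1 closest to it. This was a log2-fold change of 0.60 ± 0.17 in KM against W and 0.58 ± 0.15 in “0” against W (adjusted p = 0.344, QLF test), and the first was 0.46 without KM 3. Both kept a p under 0.05 in every alternative tried. Among KM rats Slc12a2 was highest in KM 3, the rat with the high choroid plexus markers, whose part was not tested. The highest of all rats was “0” 2. Slc4a2 (ENSRNOG00000014347), the anion exchanger AE2 of epithelia, is likewise named after its values were seen. It had 95.1, 75 and 173 CPM in KM rats, 67, 64.2, 100 and 98.9 CPM in “0” rats and 74.8, 57.5, 92.5 and 72.3 CPM in W rats. KM 3 was far above the rest, and the log2-fold change in KM against W was 0.62 ± 0.27, against 0.22 without KM 3. The p of Slc4a2 was below 0.05 without KM 1, KM 2 or W 3, at 0.73 to 0.84. The same held with the Wald test of DESeq2, the newer quasi-likelihood method and no filter, each at 0.62. It also held in 1 fit of all 11 rats, at 0.63 ± 0.27, and with the rat number as a block, at 0.55 ± 0.17. KM 3 was also the rat with the high choroid plexus markers, and their part in its Slc4a2 value was not tested.

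Slc24a4 (ENSRNOG00000006729), which encodes the sodium/calcium exchanger NCKX4, had 13, 9.63 and 18.8 CPM in KM rats, 5.09, 9.2, 7.39 and 9.1 CPM in “0” rats and 14.4, 11.3, 12.1 and 7.06 CPM in W rats. KM rats were above all “0” rats and overlapped the W rats. The log2-fold change in KM against “0” was 0.85 ± 0.29, and 0.59 without KM 3, where the p was above 0.05. Slc40a1 (ENSRNOG00000003872) encodes ferroportin, which exports iron from cells. It had 1.46, 1.94 and 2.26 CPM in KM rats, 3.26, 3.51, 3.09 and 3.71 CPM in “0” rats and 2.08, 1.38, 1.89 and 3.01 CPM in W rats. All “0” rats lay above all KM and W rats. On the log2 scale the difference was −0.83 ± 0.27 in KM against “0” and 0.70 ± 0.27 in “0” against W (adjusted p = 0.642, QLF test), and the latter had a p of 0.05 or more without “0” 2, W 1, W 2 or W 3, at 0.55 to 0.69. KM and W rats differed by −0.13 ± 0.33.

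**Figure D4:**
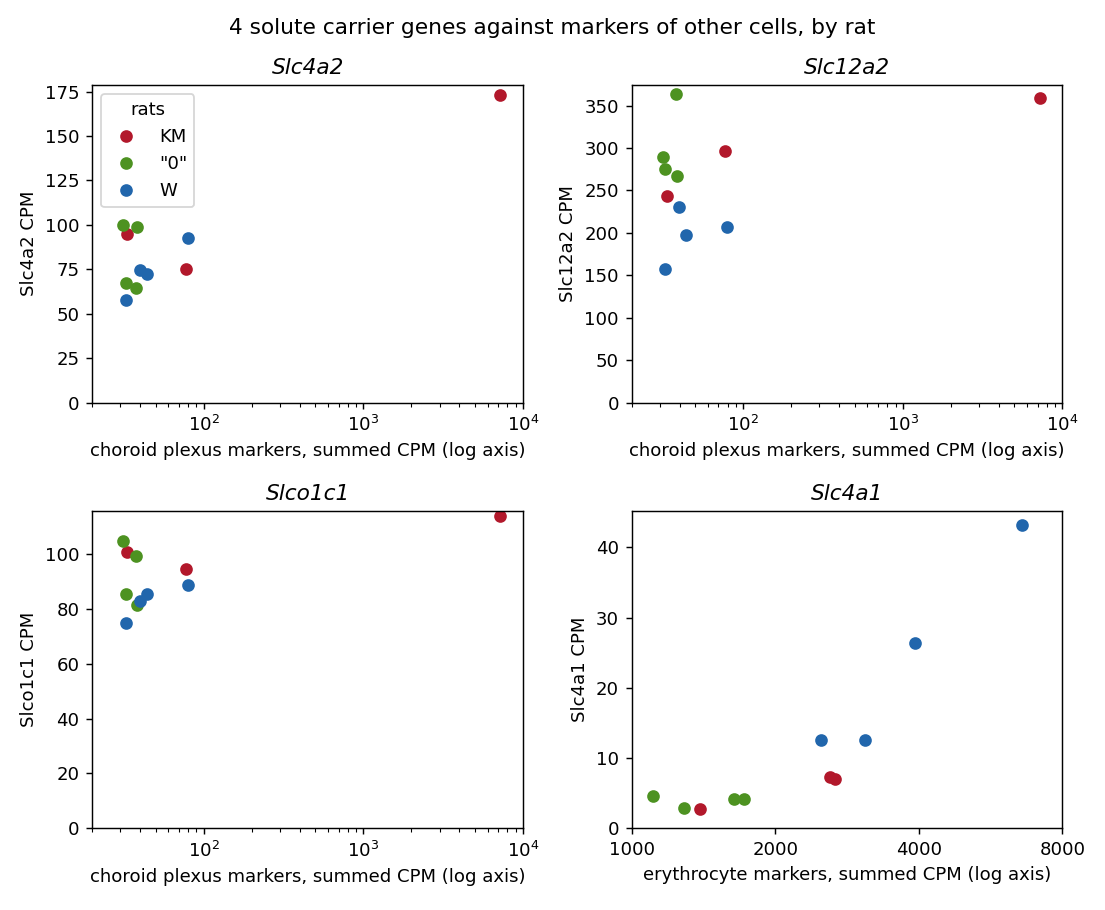
CPM of Slc4a2, Slc12a2 and Slco1c1 against the summed CPM of 8 choroid plexus markers, and of Slc4a1 against that of 4 erythrocyte marker genes (log horizontal axes), with a point for each of the 11 rats coloured by strain. KM 3 sits alone at 7230 CPM of choroid plexus markers, and the W rats hold the highest Slc4a1 values, up to 43.2 CPM at 6590 CPM of erythrocyte markers.

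The mitochondrial carriers numbered 4, of which 1 was higher and 3 were lower in KM than in W rats (5.58% and 5.33% of all genes). All 4 are listed for that comparison, so nothing is read from the count. Beside Slc25a14 and Slc25a18, Slc25a5, which encodes an ADP/ATP translocase, had 86.7 ± 9.6 CPM in KM, 92.8 ± 28.1 CPM in “0” and 121 ± 12.2 CPM in W rats (SD, n = 3, 4 and 4), and KM rats lay below all W rats with a log2-fold change of −0.47 ± 0.13. Slc25a45 (ENSRNOG00000030616), a carrier of the inner mitochondrial membrane, had 5.02, 2.03 and 2.37 CPM in KM rats, 2.07, 3.32, 2.87 and 4.03 CPM in “0” rats and 2.08, 1.38, 1.54 and 1.22 CPM in W rats. The highest W rat lay at the level of the lowest KM and “0” rats, so the ranges overlapped slightly. The difference on the log2 scale was 1.01 ± 0.38 in KM against W and 0.97 ± 0.29 in “0” against W (adjusted p = 0.451, QLF test). Against W the KM value was 0.50 without KM 1, and the p was also 0.05 or more without W 2, W 3 or W 4, at 0.91 to 1.0. The value of “0” against W kept its p under 0.05 without any 1 rat, at 0.81 to 1.13.

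The 6 carriers of fuels and metabolites included 2 monocarboxylate transporters of the same family that lay on opposite sides. Slc16a6 (ENSRNOG00000000245) (MCT7) had 11, 11.8 and 9.68 CPM in KM rats, 11.7, 10.1, 5.07 and 6.44 CPM in “0” rats and 5.21, 4.21, 4.89 and 8.1 CPM in W rats. KM rats were above all W rats, and the “0” rats were divided, with “0” 1 and “0” 2 near KM and “0” 3 and “0” 4 near W. The log2-fold change in KM against W was 0.96 ± 0.24, and 0.85 to 1.18 with each rat left out. Slc16a7 (MCT2, the lactate and ketone carrier of neurons) had 2.4 ± 0.144 CPM in KM, 2.68 ± 0.617 CPM in “0” and 3.96 ± 1.21 CPM in W rats (SD, n = 3, 4 and 4), a log2-fold change of −0.71 ± 0.29 with overlapping ranges. Slc13a5 (ENSRNOG00000014870), the citrate transporter whose human form is mutated in an early epileptic encephalopathy, had 16.1, 16.1 and 19.2 CPM in KM rats, 17.2, 26.4, 41.1 and 30.2 CPM in “0” rats and 15.3, 18, 20.6 and 12.6 CPM in W rats. “0” 1 lay inside the KM and W ranges, and the other “0” rats were above both. As a log2-fold change this was 0.78 ± 0.26 in “0” against W (adjusted p = 0.54, QLF test) and −0.74 ± 0.27 in KM against “0”. The p of the latter was 0.05 or more without KM 1, KM 2 or “0” 3, at −0.70 to −0.53.

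Slc27a1, the fatty acid transport protein FATP1, had 226 ± 20.2 CPM in KM, 310 ± 70.3 CPM in “0” and 227 ± 10.2 CPM in W rats (SD, n = 3, 4 and 4). All “0” rats were above all others, with a log2-fold change of 0.44 ± 0.16 against W (adjusted p = 0.624, QLF test). The margin to the highest KM rat was small, since that rat had 249 CPM and the lowest “0” rat 251 CPM. Slc2a5, the fructose transporter GLUT5 that marks microglia in brain, had 13.1 ± 2.83 CPM in KM, 10.6 ± 3.02 CPM in “0” and 8.95 ± 1.48 CPM in W rats (SD, n = 3, 4 and 4), with KM above all W rats. The microglial marker Tmem119 was also higher in every KM rat than in every W rat, and its part in the Slc2a5 values was not tested. Slc13a3, a dicarboxylate transporter, had 41.4 ± 9.16 CPM in KM, 54.7 ± 14.3 CPM in “0” and 62.2 ± 17.7 CPM in W rats (SD, n = 3, 4 and 4).

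All 7 carriers of hormones, vitamins, nucleosides and drugs had an unadjusted p under 0.05 in KM against W. Of these, 1 was higher and 6 were lower in KM rats (5.58% and 5.33% of all genes). All 7 are listed for that comparison, so nothing is read from the count. Slco1c1, which carries thyroxine at the blood-brain barrier, had 103 ± 9.77 CPM in KM, 92.8 ± 11.2 CPM in “0” and 83 ± 5.96 CPM in W rats (SD, n = 3, 4 and 4), with KM rats above all W rats. Its highest value, 114 CPM, was in KM 3, the rat with the high choroid plexus markers, whose part was not tested. The summed level of 4 endothelial markers (of 8 listed) was 207 to 218 CPM in KM, 191 to 215 CPM in “0” and 132 to 159 CPM in W rats, and its part in the Slco1c1 value was not tested. These marker genes, too, come from the table of listed genes.

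Among the 6 lower members, Slc22a6 (ENSRNOG00000018215), the organic anion transporter OAT1, had 1.05, 1.94 and 1.54 CPM in KM rats, 2.62, 7.02, 1.1 and 1.43 CPM in “0” rats and 4.81, 2.22, 2.14 and 10.7 CPM in W rats. The KM rats were below all W rats, and W 4 and “0” 2 stood high in their strains. The log2-fold change in KM against W was −1.69 ± 0.61, and −1.01 without W 4. Without KM 1 or KM 3 the p was 0.05 or more, at −1.50 and −1.69, and so it was with the rat number as a block, at −0.93 ± 0.45. Slc44a4 (ENSRNOG00000000878), a choline transporter-like protein, had 1.05, 2.87 and 2.91 CPM in KM rats, 2.55, 2.65, 2.76 and 4.36 CPM in “0” rats and 5.53, 4.59, 5.66 and 2.92 CPM in W rats. Its KM range ended just under W 4, the lowest W rat. The fitted log2-fold change was −1.03 ± 0.39, with a p of 0.05 or more without KM 1, W 1 or W 3, at −0.94 to −0.70.

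Slc29a3 (ENSRNOG00000000568) encodes ENT3, a nucleoside transporter of lysosomes. It had 35, 26.4 and 22.9 CPM in KM rats, 23.1, 25.7, 38.7 and 24.1 CPM in “0” rats and 36.7, 36.4, 52.1 and 41.9 CPM in W rats. KM rats were below all W rats, and so were the “0” rats except “0” 3. Its log2-fold change came to −0.56 ± 0.20 in KM against W and −0.60 ± 0.20 in “0” against W (adjusted p = 0.535, QLF test). The former had a p of 0.05 or more without KM 2 or KM 3, at −0.54 and −0.42, and with the rat number as a block, at −0.57 ± 0.24. The thiamine transporter gene Slc19a3 had 1.56 ± 0.33 CPM in KM, 2.21 ± 0.887 CPM in “0” and 3.13 ± 0.982 CPM in W rats (SD, n = 3, 4 and 4). Slc43a3, a purine base transporter, had 2.06 ± 0.356 CPM in KM, 3.05 ± 0.96 CPM in “0” and 3.63 ± 0.902 CPM in W rats (SD, n = 3, 4 and 4), and the lysosomal transporter Slc46a3 had 8.1 ± 1.13 CPM in KM, 10 ± 1.47 CPM in “0” and 10.6 ± 0.847 CPM in W rats (SD, n = 3, 4 and 4). In each of these 3 genes KM rats lay below all W rats and the “0” rats lay across the gap, with no p under 0.05 in “0” against W.

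The SLC35 family, which carries nucleotide sugars in the Golgi and includes orphan members, had 5 genes. Slc35a1, the CMP-sialic acid transporter, had 13.8 ± 0.724 CPM in KM, 12 ± 1 CPM in “0” and 11.2 ± 0.645 CPM in W rats (SD, n = 3, 4 and 4), and KM rats were above all others, although the unadjusted p was above 0.05 in both comparisons. Slc35f2 (ENSRNOG00000009014) had 4.29, 4.14 and 5.22 CPM in KM rats, 8.91, 6.07, 6.17 and 5.98 CPM in “0” rats and 5.77, 4.82, 3.94 and 7.25 CPM in W rats. KM rats were below all “0” rats, “0” 1 was the highest, and the W rats ran from below the lowest KM rat to above 3 of the “0” rats. The log2-fold change in KM against “0” was −0.56 ± 0.24, with a p of 0.05 or more without KM 1, KM 2, KM 3, “0” 1 or “0” 2, at −0.65 to −0.41, and with no filter on low counts, at −0.57. The same held with the rat number as a block, at −0.61 ± 0.29. Slc35d2 (ENSRNOG00000027229), a nucleotide sugar transporter, had 9.81, 8.2 and 4.21 CPM in KM rats, 3.82, 5.21, 9.48 and 4.75 CPM in “0” rats and 5.05, 3.83, 5.31 and 3.11 CPM in W rats. KM 1 and KM 2 were above all W rats and KM 3 lay among them, as did the “0” rats except “0” 3. The log2-fold change of KM against W was 0.78 ± 0.33, at an unadjusted p under 0.05. Leaving out KM 1 (0.51), KM 2 (0.69), W 1 (0.86), W 2 (0.72) or W 4 (0.64) raised that p above 0.05. So did 1 fit of all 11 rats (0.78 ± 0.36) and the rat number as a block (0.59 ± 0.36). Slc35e2b had 13.4 ± 1.62 CPM in KM, 13 ± 1.23 CPM in “0” and 9.69 ± 2.13 CPM in W rats and Slc35f1 had 40.3 ± 3.74 CPM in KM, 49.7 ± 15.6 CPM in “0” and 54.7 ± 9.36 CPM in W rats (SD, n = 3, 4 and 4 for each). The former was higher and the latter lower in KM than in W rats. Slc4a1ap, the adaptor, had 35.2 ± 2.94 CPM in KM, 32.7 ± 3.56 CPM in “0” and 29.3 ± 1.31 CPM in W rats (SD, n = 3, 4 and 4), with KM rats above all W rats.

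Across the strains, the “0” mean lay between the KM and W means in 25 members, 14 with the order KM, “0”, W from high to low and 11 with the reverse. It was the highest of the 3 means in 6 members and the lowest in 8. A strain whose range was clear of both other strains was KM in 4 members (Slc25a14, Slc25a18, Slc35a1 and Slc7a11), W in 4 (Slc12a2, Slc15a3, Slc38a5 and Slc4a1) and “0” in 2 (Slc27a1 and Slc40a1). In 14 members KM was clear of W alone, in 3 it was clear of “0” alone (Slc15a2, Slc24a4 and Slc35f2), and in 12 members no strain was clear of another. Pair by pair, ranges did not overlap in 11.6% (KM and W), 4.63% (KM and “0”) and 4.32% (“0” and W) of all genes. The share of all genes in each pattern above was not counted, so nothing is read from these numbers of members. The orders are descriptions, since the choice of genes favours a wide distance between KM and the strain it was listed against.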

How the data were processed

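The authors trimmed the reads with Trimmomatic, mapped them to Rnor 6.0 with STAR and, per the methods, assigned them to genes with HTSeq-count, and they deposited the raw counts of each rat. The rows of unassigned reads are named in the style of featureCounts, so the counter is uncertain. The annotation release and the strand setting of the counting are not given in the sources used here, so overlapping and antisense genes may share reads. Reads on no gene made up 16.5 to 22.7% and stayed out of library sizes. The total reads per rat on genes were 10545964 to 15140180.

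Rats were grouped by sample title. With R 4.3.3 and edgeR 4.0.16 (limma 3.58.1), each pair of strains was fitted on its own rats with TMM factors, a mean of at least 1 CPM and the legacy quasi-likelihood F-test, over all genes, with Benjamini-Hochberg adjustment. Per-rat CPM used TMM factors over all 11 rats, and the colours of the heatmap a prior count of 2. The procedure was tested on simulated data. Within each strain, pairs of rats differed by more than sampling noise (chi-square per degree of freedom of 18.6 to 211). Nothing but the rat number separates rats of a strain in the labels.

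The members, marker lists and alternatives were chosen with earlier results of these data known. Values in every rat are given for members in both lists and, in each comparison, for the 4 largest rises and 4 largest falls at an unadjusted p under 0.05. The other members are given by mean and SD, except Slc18a1, which is given as counts, and Slc12a2 and Slc4a2. These 3 exceptions were made after their values were seen. Some genes that the rule takes are not reported here and enter no count of members. Columns of fold changes and p-values in the supplementary table were not used. Alternatives were DESeq2 1.42.0, its size factors, the newer quasi-likelihood method, other filters, 1 fit of all 11 rats, the rat number as a block, a p under 0.01 and leaving out each rat. Levels of different genes were not compared, since gene lengths were not at hand. The solute carriers outside the supplementary table were not analysed here, since the identifiers could not be paired with symbols. Marker lists of meninges, pineal gland, cerebellum, cholinergic, glycinergic and other neurons had no gene with a symbol. Astrocyte markers (3 of 7), mostly Gfap, summed to 1570 to 2310 CPM in KM, 1550 to 2540 CPM in “0” and 1310 to 1630 CPM in W rats. Maob, the only gene with a symbol on the monoaminergic list, lay at 66.5 to 74.3, 84.8 to 92.4 and 74.8 to 87.5 CPM. Its KM values were below all others, as those of Aldh1l1 were, and its part in the members was not tested. Promoter sequences are from RefSeq (GRCr8).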

Additional observations from a re-analysis of the deposited data

Results flagged for a closer look

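In 5 members 1 of the 4 “0” rats lay far from the other “0” rats by Dixon's test at the 95% level. Slc24a2 was at 189 CPM in “0” 2 and at 123 to 130 CPM in the other “0” rats, and Slc7a11 was at 50.2 CPM in the same rat and at 32.6 to 35.6 CPM in the others. Slc29a3 was at 38.7 CPM in “0” 3 and at 23.1 to 25.7 CPM in the others. Slc35f2 was at 8.91 CPM in “0” 1 against 5.98 to 6.17 CPM, and Slc44a4 at 4.36 CPM in “0” 4 against 2.55 to 2.76 CPM. In all 5 the rat that stood apart was the highest. The test was made in 78 groups (39 members in “0” and W rats), and chance gives such a rat in about 1 of 20 groups.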

How the results depend on the processing

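In KM against W, 7 members instead of 26 passed at an unadjusted p under 0.01 (2.87% of all genes), 17 passed with the replicate block (11.1% of all genes, against 10.9% without it), and 17 to 22 passed when each rat was left out. In KM against “0”, 1 instead of 12 passed at 0.01 (0.789% of all genes), 8 with the replicate block (5.71% of all genes, against 3.65%) and 3 to 10 with each rat left out. In “0” against W, 5 instead of 11 passed at 0.01 (1.98% of all genes), 11 with the replicate block (5.9% of all genes, against 6.69%) and 8 to 16 with each rat left out. A stricter threshold lowers such counts by construction. In the 2 comparisons that chose the members, leaving out a rat or adding the block tends to lower them too. This is because the choice was made with all rats in and without a block. Other causes were not tested. The other alternatives gave 24 to 29, 10 to 12 and 11 to 13 members. Over 35 log2-fold changes of members given in every rat, 426 of 499 alternative values kept their direction and side of 0.05, 65 lost their p under 0.05, 8 gained it (all for Slc4a2) and 0 changed direction. The main fits did not pair rats by number. Deviations of same-numbered rats correlated at −0.188 to 0.191 in KM against W, 0.0572 to 0.236 in KM against “0” and −0.581 to 0.517 in “0” against W. The rats numbered 3 had the highest value in each comparison, and whether some rats of the same number shared a batch was not tested. The counts over all solute carriers planned beside the members were not run, for lack of symbols. Depth limits Slc18a1, with 0 to 27 counts per rat, and members near 1 CPM such as Slc22a3 and Slc22a6.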
